A study of Mus musculus with 9 samples.

Results

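The major urinary protein (Mup) genes encode small secreted proteins of the lipocalin family, and 10 of them were followed here in mouse liver: Mup1, Mup3, Mup7, Mup9, Mup10, Mup11, Mup15, Mup17, Mup20 and Mup21. They were the rows of the liver table whose Ensembl identifier carries 1 of these 10 symbols, out of 49 Mup genes and pseudogenes and 54007 rows in all. Mup15 was already known from earlier results of these libraries to differ between the groups, so the members' values are given as a description, without p-values. The livers came from C57BL/6 mice sampled on postnatal day 98, and their RNA gave 3 groups of 3 libraries. HFD+Pc mice ate a high-fat diet and were gavaged with Papillibacter cinnamivorans, a gut bacterium (replicates 1, 3 and 4). HFD mice ate the diet alone (replicates 1, 2 and 3), and control mice had neither (replicates 1, 2 and 4). Mice entered at 6 weeks of age, 15 per group. Pooling of mice within a library, a sham gavage of the HFD group and the sex of the mice are left unstated by the labels. Xist, the transcript of the inactive X chromosome, stayed at or below 0.0331 FPKM in the 9 libraries, and the Y-linked Ddx3y lay between 14.1 and 18.2 FPKM.

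Mup proteins are made mainly by hepatocytes, secreted into the blood and excreted in the urine, where they bind volatile pheromones and release them slowly. In male mice the liver expresses them strongly under pulsatile growth hormone, which acts through its receptor and the transcription factor STAT5B. Mup20 is darcin, a male pheromone in its own right, and Mup1 has been linked to glucose and lipid metabolism in obese mice. The genes lie side by side on chromosome 4, and most are near-identical copies.

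That likeness sets how far a single member can be read. Among the 21 pairs formed by Mup1, Mup7, Mup9, Mup10, Mup11, Mup15 and Mup17, coding identity was 98.5 to 99.8% (median 99.1%) in the GENCODE M21 transcripts. Pairs that include Mup3, Mup20 or Mup21 were less alike, at 83.9 to 96.3%. Mup15 was closest to Mup2, which is not among the 10, and differed from it by T13C and A472G, counted from 1 at the A of the start codon with the Mup15 base first. From Mup12, another abundant copy outside the 10, Mup15 differed by T13C, C42G and C91G, and from Mup17 by T13C, C91G, T156A, A157C, T220G, G249C, T366C and A472G. The first 100 coding bases are shown because they hold all 3 differences between Mup15 and Mup12. Capitals mark the positions at which these 4 genes differ.

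Mup15: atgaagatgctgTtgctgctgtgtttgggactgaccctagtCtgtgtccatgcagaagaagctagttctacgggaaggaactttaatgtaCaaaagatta
Mup2: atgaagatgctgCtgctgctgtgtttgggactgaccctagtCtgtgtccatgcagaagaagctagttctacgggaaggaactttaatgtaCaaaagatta
Mup12: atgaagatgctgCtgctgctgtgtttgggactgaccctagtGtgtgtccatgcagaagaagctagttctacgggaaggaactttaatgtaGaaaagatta
Mup17: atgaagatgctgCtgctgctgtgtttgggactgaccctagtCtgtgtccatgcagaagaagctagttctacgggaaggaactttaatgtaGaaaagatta

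Each transcript was cut into all its windows of 100 bases. The share of windows found in no annotated transcript of any other Mup gene, pseudogenes included, was counted. The share was 2.66% for Mup15, 12.8% for Mup1, 14.1% for Mup9, 14.6% for Mup10, 16.5% for Mup11 and 18.4% for Mup7. It reached 40.6% for Mup17, 61.2% for Mup20, 95.5% for Mup21 and 97.1% for Mup3. Mup15 had 0% of 50-base windows and 9.28% of 150-base windows to itself. Mup22, outside the 10, had 0% even at 150 bases and still carried 10571 to 43894 reads per library. How reads that match several genes were counted is not given in the sources used here. The shares depend on the window: Mup20 had 49.9% of 50-base windows to itself, and Mup17 59.6% of 150-base windows. Read length is not given in the sources used here. At all 3 sizes Mup3 and Mup21 had over 80% of windows of their own, and Mup1, Mup7, Mup9, Mup10, Mup11 and Mup15 at most 27.1%.

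**Figure D1:**
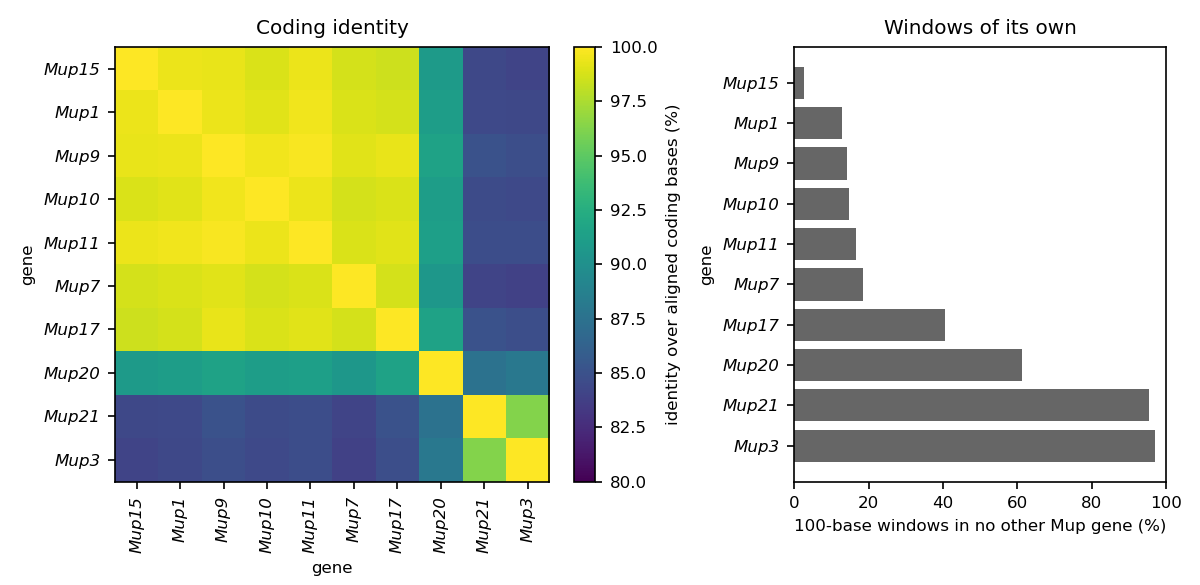
Left, identity over aligned coding bases (%, colour) between each pair of the 10 Mup genes. Right, share of each gene's 100-base windows found in no other Mup gene (%), from 2.66% for Mup15 to 97.1% for Mup3.

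Upstream sequence was available for 8 of the 10 members in the RefSeq promoter table (GRCm38.p6), which holds 250 bases before and 50 after each gene's listed start. Mup1 and Mup20 had no entry. Mup15 and Mup17 are shown because their windows aligned with 0 mismatches and 6 gap positions. Mup3 is shown as the most abundant member. The 200 bases before the listed start are given 5′ to 3′ on the gene's strand, with TATATAA in capitals.

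Mup15, chr4:61439705-61439904, minus strand: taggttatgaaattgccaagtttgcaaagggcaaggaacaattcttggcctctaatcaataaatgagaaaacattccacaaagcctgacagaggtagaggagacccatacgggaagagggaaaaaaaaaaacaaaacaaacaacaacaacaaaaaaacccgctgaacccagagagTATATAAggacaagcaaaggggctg
Mup17, chr4:61595833-61596032, minus strand: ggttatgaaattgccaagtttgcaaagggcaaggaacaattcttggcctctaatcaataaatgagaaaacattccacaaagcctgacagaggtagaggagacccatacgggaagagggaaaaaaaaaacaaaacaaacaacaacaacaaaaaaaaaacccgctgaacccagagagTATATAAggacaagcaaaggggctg
Mup3, chr4:62087318-62087517, minus strand: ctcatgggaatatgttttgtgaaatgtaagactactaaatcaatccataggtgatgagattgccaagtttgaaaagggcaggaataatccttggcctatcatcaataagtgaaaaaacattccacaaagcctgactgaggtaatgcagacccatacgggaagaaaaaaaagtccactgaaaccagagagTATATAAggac

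TATATAA, searched on both strands of the whole table windows, was present in 7 of these 8 promoters, and in 3.46% of all 27025 promoters. It was not found in the Mup7 window, which ends in letters that lie before TATATAA in Mup15 and Mup17. That window stops short of the matching positions, so it cannot show whether Mup7 has the letters. TTCNNNGAA, the letters of a STAT5 site, was in 0 of 8, against 8.47% of all promoters. TTGCNNAA, a core bound by C/EBP factors, was also in 0 of 8 (10.8% of all). CCAAT was in 4 of 8 (37.9% of all), and TGTTCT, letters recognised by the glucocorticoid receptor, in the 2 promoters of Mup3 and Mup21 (19.0% of all). In Mup11, Mup15 and Mup17 the CCAAT letters lay near the upstream edge, starting at -224, -245 and -247. The windows of Mup9 and Mup10 begin within or past the matching stretch, so the CCAAT count depends on where each listed start places the window. No 2 different motifs overlapped in these windows, and in Mup10 the TATATAA letters occur on both strands at overlapping positions. These counts describe letters in a short window only.

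Between 16279985 and 18641454 reads per library could be recovered from the table, and 1 FPKM was reached by 10323 to 10587 genes. FPKM count fragments relative to annotated gene length and library size. For near-identical copies they also depend on how shared reads were counted, which is not known. Annotated lengths differed more than the transcripts, at 1584 bases for Mup1 and 925 for Mup15, against transcripts of 927 and 925 bases. Ranks and shares among near-identical members are therefore approximate. All 10 members passed the filter used for the fit, at least 1 FPKM in at least 3 libraries. Mup10 lay below 1 FPKM in each control library and Mup9 in 2 control libraries, so both passed only through the other groups. The fit (limma on log2(FPKM + 1)) covered 10988 genes, and differences below are on that scale ± SE. Hepatocyte markers were abundant in every library: the 16 of 17 found in the table summed to 60324 to 75762 FPKM in HFD+Pc, 53531 to 57512 in HFD and 70780 to 72070 in control.

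The 10 members together were among the most abundant liver transcripts, with a higher average in both fed groups than in control. Their summed FPKM was 13146, 14881 and 13252 in HFD+Pc livers, 11878, 23020 and 16093 in HFD livers, and 9021, 12809 and 9968 in control livers. The means were 13760 ± 972 in HFD+Pc, 16997 ± 5625 in HFD and 10599 ± 1971 in control (SD, n = 3 each), or 1.42%, 1.82% and 1.09% of the recovered reads. HFD+Pc libraries lay above every control library. HFD replicate 1 overlapped control, and HFD replicate 2 stood above all others. On the log2 scale the sum differed by 0.64 ± 0.31 for HFD minus control, -0.25 ± 0.28 for HFD+Pc minus HFD and 0.39 ± 0.16 for HFD+Pc minus control. Without HFD replicate 2 the first difference was 0.40 and the second -0.01, and without HFD replicate 1 the second was -0.49. HFD replicate 2 had the highest value of the 9 libraries for 8 of the 10 members, the exceptions being Mup3 and Mup10. Within the control group, replicate 2 was highest for 9 members and replicate 1 lowest for 8.

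**Figure D2:**
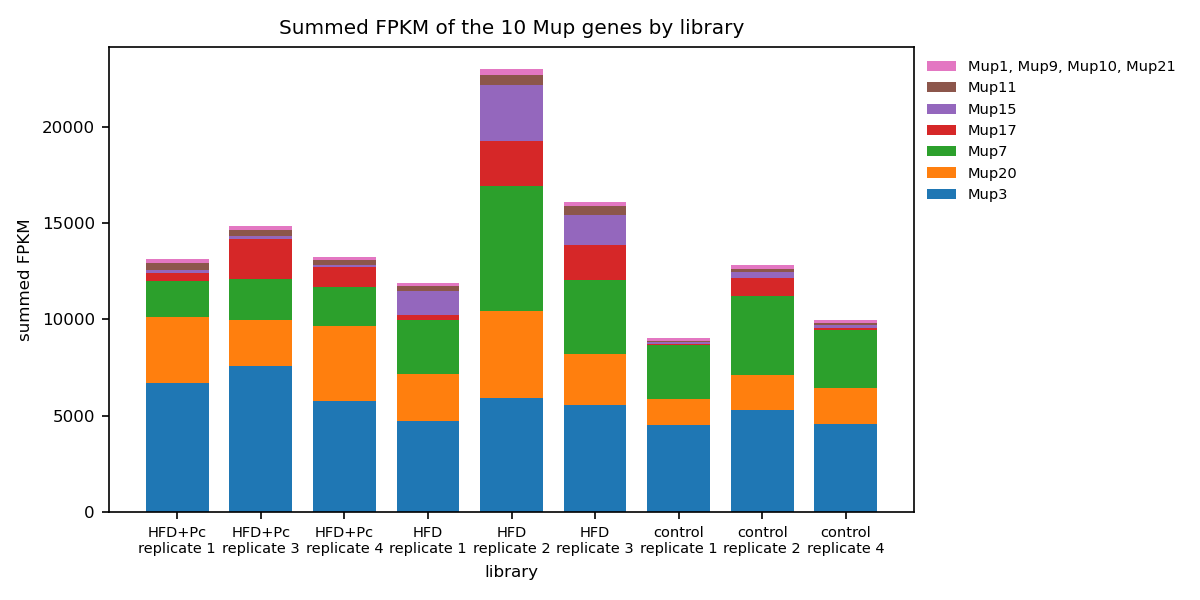
Summed FPKM of the 10 Mup genes in each library, stacked by gene, with the 4 least abundant combined. HFD replicate 2 reaches 23020 FPKM, and the Mup15 segment is at most 1.04% of the bar in HFD+Pc libraries, 9.71 to 12.7% in HFD libraries and at most 2.24% in control libraries.

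As reads were assigned in the deposited values, the makeup of the sum also differed between groups. Mup3 was the most abundant member in 8 of the 9 libraries, the exception being HFD replicate 2, where Mup7 was higher. Mup3 made up 48.4 ± 4.37% of the sum in HFD+Pc, 33.3 ± 7.22% in HFD and 45.5 ± 4.30% in control. Mup7 made up 14.5 ± 0.626% in HFD+Pc, 25.4 ± 2.55% in HFD and 31.0 ± 0.833% in control. Mup20 made up 24.0 ± 6.95%, 18.8 ± 2.03% and 16.3 ± 2.28% in the same order. Mup15 made up 0.845 ± 0.206% in HFD+Pc, 11.1 ± 1.52% in HFD and 1.56 ± 0.648% in control.

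**Figure D3:**
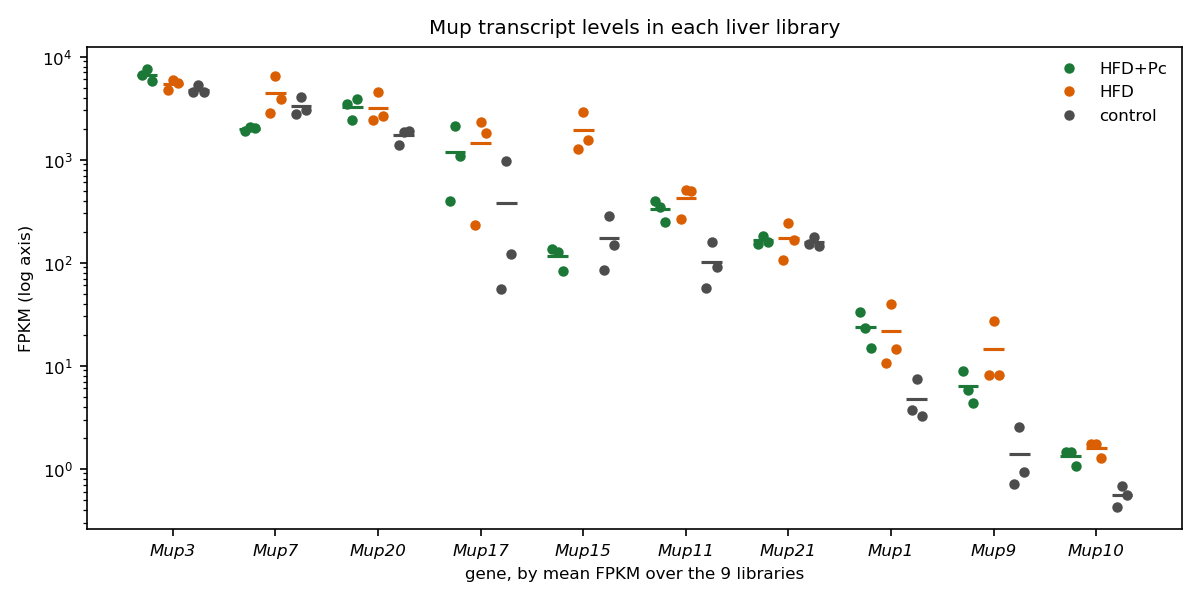
FPKM of each Mup gene (log axis) in the 9 libraries, with points for libraries and short lines for group means. Mup15 lies between 1276 and 2925 FPKM in HFD livers, above all HFD+Pc and control libraries, while the groups overlap for Mup21.

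Among the members with the most sequence of their own, Mup3 held 6677, 7583 and 5739 FPKM in HFD+Pc livers, 4741, 5892 and 5538 FPKM in HFD livers, and 4483, 5266 and 4562 FPKM in control livers. The HFD+Pc libraries lay above all control libraries, while HFD overlapped both. Mup3 differed by 0.17 ± 0.15 for HFD minus control, 0.30 ± 0.15 for HFD+Pc minus HFD and 0.48 ± 0.15 for HFD+Pc minus control. Its spread was small, with a highest to lowest ratio of 1.69 over the 9 libraries.

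Mup20, the pheromone darcin, held 3466, 2413 and 3912 FPKM in HFD+Pc livers, 2400, 4539 and 2650 FPKM in HFD livers, and 1394, 1870 and 1883 FPKM in control livers. Each library of both fed groups exceeded each control library, and the fed groups overlapped. Its differences were 0.85 ± 0.27 for HFD minus control, 0.06 ± 0.27 for HFD+Pc minus HFD and 0.91 ± 0.27 for HFD+Pc minus control. Mup21 held 151, 183 and 159 FPKM in HFD+Pc livers, 107, 244 and 165 FPKM in HFD livers, and 150, 176 and 146 FPKM in control livers. All 3 groups overlapped, and its differences lay between 0.01 and 0.06. The 2 extreme HFD libraries offset each other in these values. Without HFD replicate 2, HFD minus control was -0.24 and HFD+Pc minus HFD 0.30, and without HFD replicate 1 they were 0.35 and -0.29.

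Mup15 had the widest contrast between groups. It held 137, 128 and 83.7 FPKM in HFD+Pc livers, 1276, 2925 and 1562 FPKM in HFD livers, and 85.4, 286 and 148 FPKM in control livers. The HFD libraries stood apart from both other groups, which overlapped each other. The difference was 3.54 ± 0.44 for HFD minus control, -3.97 ± 0.44 for HFD+Pc minus HFD and -0.43 ± 0.44 for HFD+Pc minus control. Over fits that left out 1 library in turn, the first ranged from 3.12 to 3.99 and the second from -4.22 to -3.62.

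The contrast between HFD+Pc and HFD was much smaller in the sum of Mup15 and its near copies, of which Mup15 was a minor part. The 9 genes within 5 coding mismatches of Mup15 were Mup1, Mup2, Mup9, Mup11, Mup12, Mup16, Mup18, Mup19 and Mup22. Mup15 and these copies summed to 9521, 8154 and 5067 FPKM in HFD+Pc livers, 6200, 10566 and 9033 FPKM in HFD livers, and 2334, 4229 and 3169 FPKM in control livers. Both fed groups lay above control and overlapped each other. The pooled sum differed by 1.41 for HFD minus control, -0.20 for HFD+Pc minus HFD and 1.22 for HFD+Pc minus control, a pooling chosen after the single values were seen. Mup15 averaged 1921 of the pooled 8600 FPKM in HFD and 116 of 7581 FPKM in HFD+Pc. Its own fall could therefore move the pooled HFD+Pc minus HFD value only slightly, whatever the other copies did. Whether reads were shared differently between copies was not tested. In Mup2, the closest copy, levels were low throughout, at 2.87 to 5.14 FPKM in HFD+Pc, 2.49 to 4.98 FPKM in HFD and 1.37 to 2.68 FPKM in control.

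**Figure D4:**
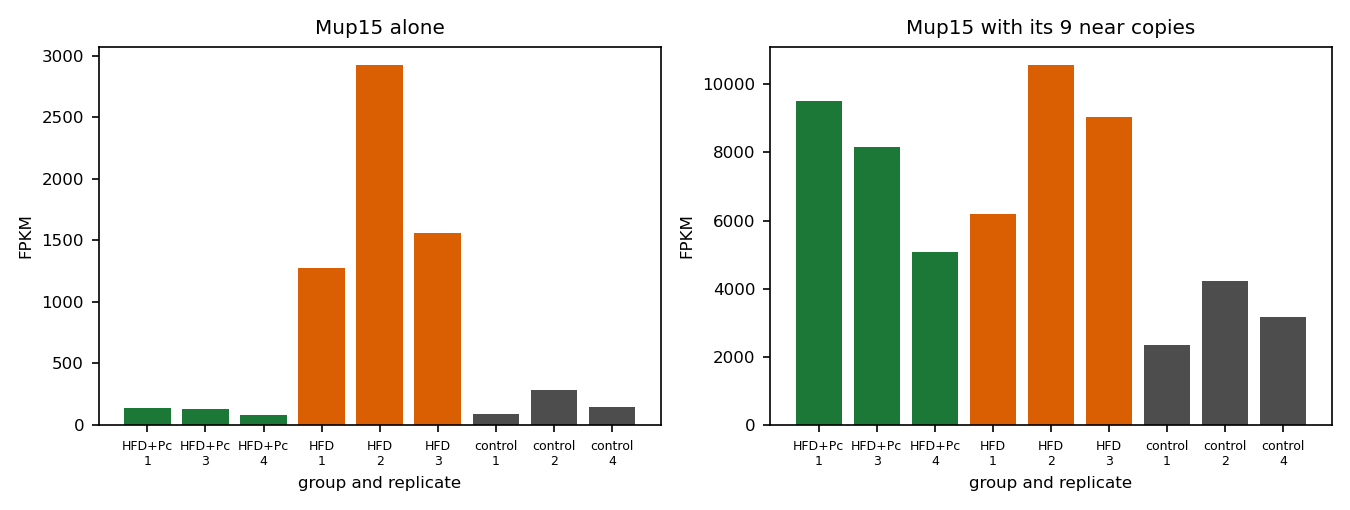
FPKM of Mup15 alone (left) and of Mup15 summed with its 9 near copies (right) in each library, on separate linear axes. Alone, HFD+Pc libraries stay at or below 137 FPKM against at least 1276 in HFD; summed, HFD+Pc libraries hold 5067 to 9521 FPKM and HFD libraries 6200 to 10566.

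Mup17, whose upstream letters match those of Mup15, held 396, 2111 and 1075 FPKM in HFD+Pc livers, 234, 2330 and 1816 FPKM in HFD livers, and 55.3, 962 and 122 FPKM in control livers. It varied more within groups than any other member, 5.34-fold within HFD+Pc, 9.97-fold within HFD and 17.4-fold within control, and all groups overlapped. Its differences were 2.41 ± 1.21 for HFD minus control, -0.05 ± 1.21 for HFD+Pc minus HFD and 2.36 ± 1.21 for HFD+Pc minus control. With 1 library left out they ranged from 1.53 (without control replicate 1) to 3.58 (without control replicate 2), from -1.09 (without HFD replicate 1) to 0.59 (without HFD+Pc replicate 1), and from 1.49 (without control replicate 1) to 3.54 (without control replicate 2). The sign of HFD+Pc minus HFD also turned without HFD replicate 2 (0.56) or 3 (0.38).

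Mup7 was lower in the gavaged group than in both others. It held 1881, 2086 and 2017 FPKM in HFD+Pc livers, 2835, 6513 and 3846 FPKM in HFD livers, and 2792, 4082 and 3011 FPKM in control livers. Each HFD+Pc library lay below each library of the other groups, which overlapped. Its differences were 0.35 ± 0.27 for HFD minus control, -1.05 ± 0.27 for HFD+Pc minus HFD and -0.71 ± 0.27 for HFD+Pc minus control. Without HFD replicate 2 the first was 0.02, and without HFD replicate 1 it was 0.62.

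Mup11 held 395, 347 and 246 FPKM in HFD+Pc livers, 266, 508 and 491 FPKM in HFD livers, and 56.3, 157 and 90.0 FPKM in control livers. Mup1 held 33.0, 23.1 and 14.7 FPKM in HFD+Pc livers, 10.5, 39.9 and 14.6 FPKM in HFD livers, and 3.68, 7.36 and 3.28 FPKM in control livers. For both genes every library of the fed groups exceeded every control library, and the fed groups overlapped. Mup11 differed by 2.12 ± 0.38 for HFD minus control and 1.79 ± 0.38 for HFD+Pc minus control. Mup1 differed by 1.82 ± 0.47 and 2.09 ± 0.47 in the same comparisons. HFD+Pc minus HFD was -0.32 ± 0.38 for Mup11 and 0.27 ± 0.47 for Mup1.

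The 2 least abundant members had the same order of groups. Mup9 held 8.97, 5.85 and 4.34 FPKM in HFD+Pc livers, 8.07, 27.1 and 8.17 FPKM in HFD livers, and 0.713, 2.51 and 0.922 FPKM in control livers. Mup9 was read from 110 to 698 reads in fed libraries and 20 to 64 in control. Mup10 held 1.44, 1.46 and 1.06 FPKM in HFD+Pc livers, 1.72, 1.72 and 1.28 FPKM in HFD livers, and 0.423, 0.677 and 0.556 FPKM in control livers. Neither overlapped control in either fed group. HFD minus control was 2.55 ± 0.46 for Mup9 and 0.73 ± 0.12 for Mup10, a scale that understates changes near 1 FPKM.

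**Figure D5:**
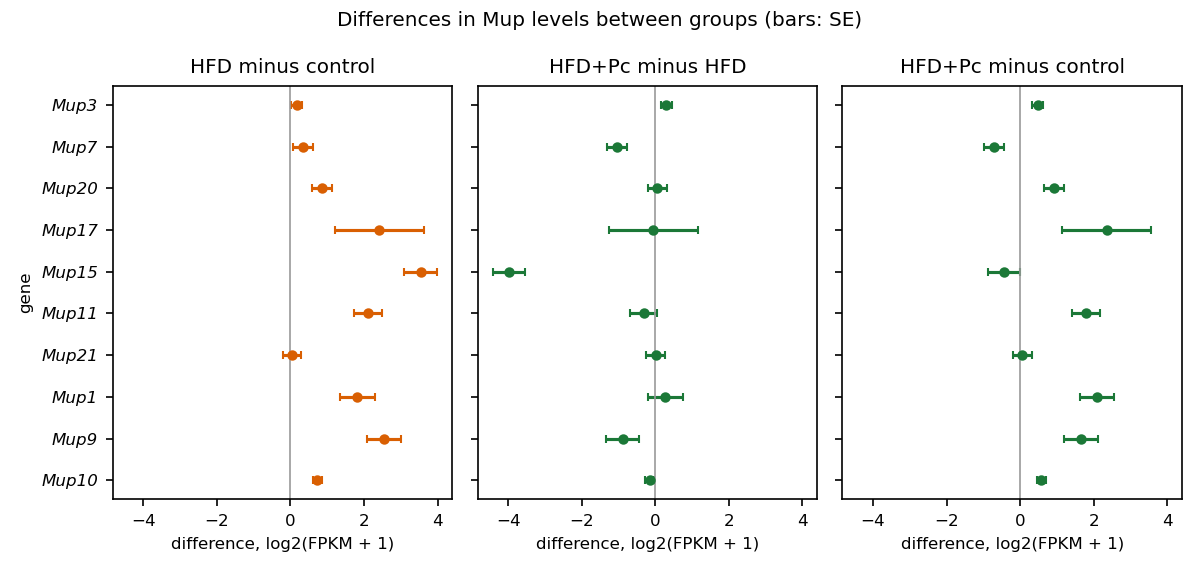
Differences ± SE on the log2(FPKM + 1) scale for the 10 Mup genes in HFD minus control, HFD+Pc minus HFD and HFD+Pc minus control. Mup15 is at 3.54, -3.97 and -0.43, Mup21 is near 0 in all 3, and the wide bars of Mup17 are its SE of 1.21.

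Counted over the members, HFD against control gave 10 positive differences of 10, with a median of 1.34 against -0.00 over all tested genes. In limma with Benjamini-Hochberg adjustment over all genes, 5 members passed as higher (Mup1, Mup9, Mup10, Mup11 and Mup15), where 9.97% of all tested genes passed in either direction, 4.61% as higher and 5.35% as lower. Groups did not overlap for 6 members, all higher, where 16.5% of all genes were higher and 16.4% lower without overlap. Nothing is read from these counts, since the members were chosen with this contrast known. The call of Mup11 was lost without HFD replicate 2 (1.95) and that of Mup9 without control replicate 1 (2.35). Mup1 kept its call in 1 of 9 fits without a library, the fit without HFD replicate 1, with differences of 1.28 to 2.20. Mup10 and Mup15 passed in all 9. Mup9 and Mup10 met the filter only through the fed groups, where they are higher, so their calls carry no weight.

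In HFD+Pc against HFD, 4 members had positive and 6 negative differences, with a median of -0.10 against 0.01 over all genes. Mup15 passed in limma as lower and was the only member to pass, where 0.628% of all genes passed, 0.182% as higher and 0.446% as lower. Mup7 and Mup15 were lower without overlap, where 10.2% of all genes were higher and 9.56% lower without overlap. These counts too are a description only. The call of Mup15 was lost without HFD replicate 2 (-3.62), HFD+Pc replicate 3 (-4.06) or HFD+Pc replicate 4 (-3.75). The comparisons share the HFD libraries, so the values of Mup15 in them are not independent.

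In HFD+Pc against control, 8 members were positive and 2 negative (Mup7 and Mup15), with a median of 0.75 against 0.01. Mup1, Mup3, Mup9, Mup10, Mup11 and Mup20 passed as higher, where 23.1% of all genes passed, 11.1% as higher and 11.9% as lower. Groups did not overlap for 6 higher members (22.1% of all genes) and for Mup7 as lower (20.8%). Mup11 passed in all 9 fits without a library, as did Mup10. The limit of the filter holds here too for Mup9 and Mup10. Mup1 lost its call without control replicate 1 (1.97) or 4 (1.91). Mup3 lost it without HFD+Pc replicate 1 (0.47) or 3 (0.38) or control replicate 1 (0.43), 2 (0.55) or 4 (0.45). Mup9 lost it without HFD+Pc replicate 1 (1.42) or 3 (1.69) or control replicate 1 (1.46) or 4 (1.54). Mup20 lost it without HFD+Pc replicate 1 (0.85) or 4 (0.77) or control replicate 1 (0.77), 2 (0.98) or 4 (0.99). Mup7 passed as lower without HFD replicate 1 or 2.

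Most Mup genes outside the 10 were also higher on average in the fed groups. All 18 that reached the filter had positive differences in HFD minus control (median 1.33) and in HFD+Pc minus control (median 1.01), and 9 of 18 in HFD+Pc minus HFD (median -0.05). In limma, 5 of the 18 passed as higher in HFD against control, where 4.61% of all tested genes did, and 6 in HFD+Pc against control, where 11.1% did. They share sequence with the members, and some also passed the filter only through the fed groups, so nothing is read from these counts. Mup12, second to Mup3 in mean level in HFD+Pc but below Mup7 in HFD and control, held 5208, 5988 and 2786 FPKM in HFD+Pc livers, 2431, 4584 and 3236 FPKM in HFD livers, and 1455, 2499 and 2014 FPKM in control livers. Mup22 held 2845, 1314 and 1242 FPKM in HFD+Pc livers, 1812, 2336 and 3032 FPKM in HFD livers, and 682, 1142 and 679 FPKM in control livers. Mup13 reached 847 FPKM in HFD replicate 2, against 27.1 and 68.8 FPKM in the other HFD livers. Summed over all 49 Mup genes, levels were 22466 ± 2026 FPKM in HFD+Pc, 24483 ± 7767 FPKM in HFD and 13973 ± 2871 FPKM in control (SD, n = 3 each).

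Some marker sums of other cell types also differed between groups, while others, such as those of macrophage and adipocyte markers, overlapped. The 8 markers of B and plasma cells summed to 31.8 to 44.1 FPKM in HFD+Pc, 60.6 to 94.3 FPKM in HFD and 27.3 to 41.2 FPKM in control, so they were highest in HFD, as Mup15 was. Of the 6 tested, 3 passed as higher in HFD against control, where 4.61% of all tested genes did. In HFD+Pc against HFD 1 passed as lower, where 0.446% of all tested genes did. The 7 genes listed as adipocyte markers, of which only 2 reached the filter, summed to 645 to 1019 FPKM in HFD+Pc, 674 to 993 FPKM in HFD and 157 to 736 FPKM in control. Which cells these transcripts came from was not tested. The 10 endothelial markers summed to 82.7 to 89.4 FPKM in HFD+Pc, 72.0 to 89.6 FPKM in HFD and 101 to 114 FPKM in control. Of these, 3 passed as lower in HFD against control, where 5.35% of all tested genes did. The 12 macrophage markers summed to 271 to 425 FPKM in HFD+Pc, 347 to 489 FPKM in HFD and 398 to 546 FPKM in control, and all 12 had negative differences in HFD+Pc minus HFD. Of 5 tested erythroid markers, 3 passed as lower in HFD+Pc against control, where 11.9% of all tested genes did. Of 13 mitochondrially encoded genes, a quality list and not a cell type, 12 had positive differences in that comparison. Among these 13, 2 passed as higher, where 11.1% of all tested genes did, and nothing is read from that count. None of these markers was at 0 in all libraries, and their part in the Mup values was not tested. In bulk liver, fewer cells of a type and less RNA per cell cannot be told apart.

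Growth hormone signalling, which drives Mup expression in male liver, was described by a list of 15 genes. Of 13 tested genes of the pathway, 2 passed as higher and 1 as lower in HFD against control, and 3 as higher and 1 as lower in HFD+Pc against control (medians -0.14 and -0.22), where 9.97% and 23.1% of all tested genes passed. The HFD against control count was 1 without any single HFD library, HFD+Pc replicate 4 or control replicate 1 or 2, and 0 with the replicate block. In HFD+Pc against HFD, limma passed 0, with 0 at an unadjusted p under 0.05 and 0 by limma-voom. Stat5a, a transcription factor activated by the receptor, averaged 4.19 ± 0.371 FPKM in HFD+Pc, 4.24 ± 0.403 FPKM in HFD and 2.68 ± 0.0487 FPKM in control (limma adjusted p = 0.0113 for HFD against control and 0.00497 for HFD+Pc against control). Stat5b, the factor through which growth hormone acts on male liver genes, averaged 22.6 ± 1.93 FPKM in HFD+Pc, 20.0 ± 1.89 FPKM in HFD and 16.3 ± 0.797 FPKM in control (limma adjusted p = 0.0105 for HFD+Pc against control). Socs2, a feedback inhibitor and STAT5 target, fell to 0.650 ± 0.588 FPKM in HFD+Pc, against 2.98 ± 1.05 FPKM in control (-1.30 ± 0.25, limma adjusted p = 0.00871). These calls held in all 9 fits without a library, while the replicate block ended that of Stat5a in HFD against control and that of Stat5b. Socs2 held at most 1.31 FPKM in the fed groups and met the filter only with the control libraries, where it is higher. Its calls therefore carry no weight. Ghr, the receptor, averaged 67.7 ± 2.92 FPKM in HFD+Pc, 68.1 ± 4.08 FPKM in HFD and 49.0 ± 8.56 FPKM in control. Its call for HFD+Pc against control (limma adjusted p = 0.0248) was lost without HFD+Pc replicate 3 or 4, with no filter, with the length and GC trend removed and with the replicate block. Its call for HFD against control (limma adjusted p = 0.0418) was lost in 8 of the 9 fits and under 5 of 11 other alternatives. The Socs2 call for HFD against control (-1.02 ± 0.25, limma adjusted p = 0.0379) was lost without the same libraries as the count above, and under 5 of 11 other alternatives.

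Of 18 hormone receptors and liver transcription factors, 1 passed as higher in HFD against control, and 2 as higher and 4 as lower in HFD+Pc against control (medians 0.03 and -0.14), where 9.97% and 23.1% of all tested genes passed. The HFD against control count was 0 without HFD replicate 1 or 2 or control replicate 2, and 2 without HFD+Pc replicate 1 or 3. Limma passed 0 in HFD+Pc against HFD, with 5 at an unadjusted p under 0.05 and 1 (Cux1, lower) by limma-voom. Cebpb, a C/EBP factor of the acute-phase and metabolic response, averaged 29.9 ± 7.01 FPKM in HFD+Pc, 44.0 ± 8.45 FPKM in HFD and 67.3 ± 10.7 FPKM in control (-1.15 ± 0.20 for HFD+Pc minus control, limma adjusted p = 0.00568). Rxra, the shared partner of many nuclear receptors, fell by 0.47 in the same comparison (limma adjusted p = 0.00620). Both calls held in all 9 fits without a library. Nr1d1, a clock repressor, averaged 12.4 ± 0.370 FPKM in HFD+Pc, 14.0 ± 2.79 FPKM in HFD and 6.96 ± 2.12 FPKM in control. Its call in HFD against control (limma adjusted p = 0.0231) was lost without the same HFD and control libraries, with no filter, with only the 2 groups fitted and with the replicate block.

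Other genes that differ between male and female liver were counted in the same way. Of 16 tested male-biased genes besides the Mup family, 2 passed as higher and 1 as lower in HFD against control, and 3 as higher and 1 as lower in HFD+Pc against control (medians 0.34 and 0.07), where 9.97% and 23.1% of all tested genes passed. Differences were positive for 13 of the 16 in HFD minus control and for 8 in HFD+Pc minus control. The first count was 0 without HFD replicate 3 or control replicate 1 or 4 and 1 without HFD replicate 2 or control replicate 2. The second was 2 without HFD+Pc replicate 1, and 1 without HFD+Pc replicate 3 or control replicate 2 or 4. Between HFD+Pc and HFD, limma passed 0, with 4 at an unadjusted p under 0.05 and 0 by limma-voom. Cyp4a12a, a male-biased fatty acid hydroxylase, averaged 167 ± 19.6 FPKM in HFD+Pc, 163 ± 49.3 FPKM in HFD and 81.0 ± 20.9 FPKM in control. Its difference of 1.06 ± 0.24 for HFD+Pc minus control held in all 9 fits without a library (limma adjusted p = 0.0141). Of 22 female-biased genes only 7 reached the filter, and 2 passed as lower in HFD against control and 3 as higher in HFD+Pc against control (medians -1.15 and -0.41), where 9.97% and 23.1% of all tested genes passed. Without HFD replicate 2 the calls in HFD against control were 2 higher and 0 lower. They were 0 without control replicate 1, and 1 without HFD replicate 1 or 3 or control replicate 2. The count in HFD+Pc against control was 1 without HFD+Pc replicate 3 or control replicate 4. All 7 had positive differences in HFD+Pc minus HFD (median 0.51). In HFD+Pc against HFD, limma passed 0, with 1 at an unadjusted p under 0.05 and 0 by limma-voom. Cyp2b9, a female-biased cytochrome P450, averaged 6.58 ± 0.424 FPKM in HFD+Pc, 5.13 ± 4.88 FPKM in HFD and 0.375 ± 0.261 FPKM in control (2.48 ± 0.53 for HFD+Pc minus control, limma adjusted p = 0.0120), a call that limma-voom did not make. Its control libraries held at most 0.598 FPKM, so it met the filter only through the fed groups and its call carries no weight.

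Among 9 tested lipocalins outside the Mup family, 2 passed as lower in HFD against control, and 1 as higher and 1 as lower in HFD+Pc against control (medians 0.09 and -0.31), where 9.97% and 23.1% of all tested genes passed. The first count was 1 in every fit without a library other than HFD+Pc replicate 1, and the second was 1 without HFD+Pc replicate 3 or 4 or control replicate 2. In HFD+Pc against HFD, limma passed 0, with 1 at an unadjusted p under 0.05 and 0 by limma-voom. Apom, which carries sphingosine-1-phosphate in plasma, averaged 106 ± 12.4 FPKM in HFD+Pc, 103 ± 15.6 FPKM in HFD and 189 ± 8.78 FPKM in control. It fell by 0.88 in HFD against control (limma adjusted p = 0.00676) and by 0.84 in HFD+Pc against control (limma adjusted p = 0.00344), calls that held in all 9 fits without a library.

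The genes whose log2 levels were most correlated with Mup15 over the 9 libraries were Phyh (Pearson r = 0.955), Crebl2 (0.945), Pogz (0.919), Ctu1 (0.906) and Gm13131 (0.897). Phyh, a peroxisomal enzyme of phytanic acid breakdown, averaged 841 ± 60.6 FPKM in HFD+Pc, 1102 ± 42.6 FPKM in HFD and 803 ± 69.8 FPKM in control. For the sum of the 10 members the genes were Egln3 (0.940), Nup98 (0.926), Mmp15 (0.924), Cyp7b1 (0.913) and Sorbs2 (0.893). Cyp7b1, a male-biased oxysterol hydroxylase, averaged 77.3 ± 1.65 FPKM in HFD+Pc, 97.1 ± 38.9 FPKM in HFD and 46.4 ± 15.1 FPKM in control. These correlations were picked from all tested genes over libraries that share their groups, and are descriptions without a test.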

How the data were processed

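Per the labels' protocols, Trizol was used to isolate total liver RNA for Illumina sequencing. The submitters' processing notes name HISAT2 2.0.5 and GRCm39. The authors deposited FPKM per gene, per the file headers; the counting tool and annotation are not given in the sources used here. Symbols were matched by Ensembl identifier for 52093 of 54007 rows.

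The 10988 genes reaching 1 FPKM in 3 or more libraries were fitted in R 4.3.3 with limma 3.58.1 (lmFit, eBayes with trend and robust) on log2(FPKM + 1), with 3 groups in 1 model. P-values were adjusted by Benjamini-Hochberg over all tested genes at a threshold of 0.05, and measure only the spread between these libraries. The fit was also run on simulated reads with the same low dispersion for every gene. Members such as Mup15 and Mup17 varied more, with an SD within groups of 43.3% and 93.4% of the mean, averaged over groups. The simulation therefore does not speak for them. Whole reads, within 0.02, were recovered for 98.2% of the 25831 genes above 0 with a GENCODE M21 length. The divisor behind the FPKM was 99.1 to 110% of the recovered total (103 to 110% in HFD, 99.1 to 102% in control and 99.5 to 103% in HFD+Pc). Shares of reads and limma-voom rest on the recovered total, which raises HFD values relative to the FPKM scale. Reads were used for totals, shares and limma-voom only. At 3 reads, a gene of 1 kb has 0.160 to 0.179 FPKM, counting error only.

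Members and gene lists were chosen with earlier results of these data known. Genes named are all members, other Mup genes reaching 1 FPKM, up to 3 passing genes per list, direction and comparison by adjusted p, and the 5 most correlated with Mup15 and with the summed members; not all of them are printed. Transcripts (GENCODE M21) and promoters (RefSeq, GRCm38.p6) belong to an earlier build than the alignment and served for sequence only. For each gene the longest complete coding transcript was used, aligned in pairs with Biopython 1.88. Alternatives were other pseudocounts, filters, scalings, fits and sums, a block on replicate number, and fits without 1 library.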

Additional observations from a re-analysis of the deposited data

Results flagged for a closer look

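Mup5, a Mup gene outside the 10 members, stood at 112 FPKM (1751 reads) in HFD+Pc replicate 4, while the other HFD+Pc libraries held 0, the HFD libraries at most 0.189 and the control libraries at most 0.0578 FPKM. It was picked out because a signal far above the control level appeared in 1 library of a gene that enters no comparison. Of its 100-base windows, 98.7% occur in no other Mup gene, and its closest relative by coding sequence is Mup4 (93.1%), which held at most 0.780 FPKM in any library. The pseudogene Mup-ps18 held 1.76 FPKM (16 reads) in HFD replicate 2, 0.862 FPKM (8 reads) in HFD+Pc replicate 1 and 0.112 FPKM (1 read) in HFD replicate 3. The control libraries held 0. It reached 1 FPKM in only 1 library and so enters no comparison either, and its values rest on few reads.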

How the results depend on the processing

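Over the alternatives of the fit, 600 member values were recomputed: 586 moved by less than 1 SD between replicates, 14 moved further and 0 of the called ones changed sign. Of the 14, all but 2 were Mup9 or Mup10 at other pseudocounts or by limma-voom. The others were Mup1 at pseudocount 5 and Mup21, which went to -0.08 for HFD+Pc minus control when a trend in length and GC content was removed. Mup15 in HFD minus control stayed past the threshold in all 11 alternatives other than left-out libraries (3.43 to 3.63). In HFD+Pc minus HFD it did so in 10 of 11 (-4.06 to -3.56), the exception being no filter. Other members' calls for HFD minus control held in 5 of 11 for Mup1, 9 for Mup9 and 10 each for Mup10 and Mup11. For HFD+Pc minus control they held in 7 each for Mup3 and Mup9, 8 for Mup20, 9 for Mup1 and 11 each for Mup10 and Mup11. The calls of Mup9 and Mup10 carry no weight, since both met the filter only through the fed groups. Summed with its near copies, Mup15 gave 1.41, -0.20 and 1.22 in the 3 comparisons, an alternative chosen after seeing the data. The summed FPKM for HFD+Pc minus control was 0.39, and 0.70 with all Mup genes; left-out libraries gave 0.28 to 0.53 there, 0.40 to 0.88 for HFD minus control and -0.49 to -0.01 for HFD+Pc minus HFD.

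Counts of all genes passing depended on the settings. For HFD against control, 1095 genes passed, against 725 at a filter of 0.1 FPKM, 209 without a filter, 659 with only the 2 groups fitted, and 332 to 1126 with a library left out. The split of these calls moved most by limma-voom, 993 higher and 411 lower against 507 and 588, where the median difference of all genes was 0.08. In HFD+Pc minus HFD that median was -0.06. Limma-voom was scaled to the recovered total, and the FPKM divisor was 103 to 110% of it in HFD and 99.1 to 102% in control. For HFD+Pc against HFD, 69 passed, against 27 at a filter of 0.1 FPKM, 3 without a filter, 22 with only the 2 groups, 30 with plain eBayes, 37 at pseudocount 5, 120 with upper-quartile scaling, 133 with the length and GC trend removed, 179 by limma-voom and 5 to 123 with a library left out. For HFD+Pc against control, 2538 passed, against 1383 without a filter and 1396 to 2644 with a library left out. The cause was not tested.

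Replicate numbers are shared between groups. Over all tested genes, same-numbered libraries did not deviate together (correlations from -0.12 to 0.05). Over the 10 members, replicate 2 was highest for 9 in both HFD and control. Replicate 1 was lowest for 9 in HFD and 8 in control, but for 3 in HFD+Pc. Whether the numbers mark anything shared by the libraries was not tested. With the replicate block, 232 genes passed in HFD against control (summed FPKM 0.60), 3 in HFD+Pc against HFD (-0.07) and 1058 in HFD+Pc against control (0.53). Under the block Mup17 and Mup20 gained a call in HFD against control and Mup10 lost its own. In HFD+Pc against control Mup17 gained a call and Mup3 lost its own.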
